A study of Homo sapiens with 13 samples.

Results

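The interleukin-1 family was followed through its ligands IL1A, IL1B, IL36G, IL36B, IL18 and IL33, its receptor antagonists IL1RN and IL36RN, and its receptors IL1R1 and IL1R2. These 10 genes were taken by symbol from the RNA tables, which list 23637 genes, and from the peak tables of 3 histone marks. All 10 were listed in the RNA tables, and 8 of them had at least 1 listed peak of H3K27Ac. TE-7, an established human cell line derived from an esophageal carcinoma and labelled as esophageal epithelium, was grown alone or with 100 ng/ml of interleukin-13 (IL-13), a cytokine of type 2 immunity. The 6 RNA libraries are control and IL-13 cells at 2, 6 and 24 hr. Another 6 libraries, from chromatin immunoprecipitation at 6 hr, hold the active histone marks H3K4me3, H3K9Ac and H3K27Ac in control and in IL-13 cells. Each group is 1 library of 1 cell line, so no difference at a single time has a replicate check.

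Interleukin-1 alpha and beta bind the receptor IL1R1, which recruits the accessory protein IL1RAP and signals through MYD88 and the IRAK kinases to NF-kB. IL1RN encodes the antagonist that occupies IL1R1 without signalling, and IL1R2 is a decoy receptor that binds ligand without signalling. The IL-36 cytokines act in squamous epithelia through a related receptor and are opposed by the antagonist IL36RN, while IL-18 and IL-33 have receptors of their own. Interleukin-1 alpha and IL-33 are held in epithelial cells and act as alarm signals when cells are damaged.

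The family lies mostly in clusters on chromosome 2 (coordinates of build hg19, as deposited). Ligands and antagonists from IL1A to IL1RN span 113531492 to 113891593, or 360.1 kb with 9 genes, and the receptors from IL1R2 to IL18RAP span 102615424 to 103069024, or 453.6 kb with 6 genes. IL18 lies on chromosome 11 (112013974 to 112034840) and IL33 on chromosome 9 (6215786 to 6257983).

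The sequence before annotated starts is given for IL1RN and IL36G, which were 2-fold lower with IL-13 at 24 hr, for IL1R2, which carried the called H3K27Ac peak, and for the ligand IL1B. An IL1RN window without a match and the windows of the other members are not shown. Windows of 250 bases before the start came from RefSeq (GRCh38.p14), which held 17 windows for 8 members, with IL36B and IL18 missing. Capitals mark matches on either strand to TTC and GAA with 4 bases between them (the STAT6-type motif, a spacing bound by the factor that IL-13 activates), TTCNNNGAA (other STAT factors) and TGANTCA (AP-1). The NF-kB consensus was searched too. The STAT motifs and TGANTCA can overlap each other.
IL1RN, chr2:113117721-113117970, plus strand: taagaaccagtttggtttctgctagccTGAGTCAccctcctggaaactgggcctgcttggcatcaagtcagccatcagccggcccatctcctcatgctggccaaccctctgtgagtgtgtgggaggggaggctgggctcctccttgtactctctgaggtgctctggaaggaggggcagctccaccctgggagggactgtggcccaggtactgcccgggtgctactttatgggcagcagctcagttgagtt
IL1RN, chr2:113127239-113127488, plus strand: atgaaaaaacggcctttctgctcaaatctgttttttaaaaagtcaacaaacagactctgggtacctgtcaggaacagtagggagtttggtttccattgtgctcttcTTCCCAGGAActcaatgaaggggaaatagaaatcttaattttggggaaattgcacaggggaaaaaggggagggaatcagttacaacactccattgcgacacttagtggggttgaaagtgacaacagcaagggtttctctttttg
IL36G, chr2:112977756-112978005, plus strand: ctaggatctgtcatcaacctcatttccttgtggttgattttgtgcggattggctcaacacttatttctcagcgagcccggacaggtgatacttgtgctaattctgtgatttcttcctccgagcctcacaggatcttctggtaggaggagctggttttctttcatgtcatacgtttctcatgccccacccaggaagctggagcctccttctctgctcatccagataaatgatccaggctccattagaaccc
IL1B, chr2:112836780-112837029, minus strand: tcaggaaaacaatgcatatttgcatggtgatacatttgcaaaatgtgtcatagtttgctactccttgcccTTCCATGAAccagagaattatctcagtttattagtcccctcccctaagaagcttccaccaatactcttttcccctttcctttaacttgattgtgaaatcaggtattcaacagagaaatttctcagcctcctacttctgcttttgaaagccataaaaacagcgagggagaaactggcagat
IL1R2, chr2:101991710-101991959, plus strand: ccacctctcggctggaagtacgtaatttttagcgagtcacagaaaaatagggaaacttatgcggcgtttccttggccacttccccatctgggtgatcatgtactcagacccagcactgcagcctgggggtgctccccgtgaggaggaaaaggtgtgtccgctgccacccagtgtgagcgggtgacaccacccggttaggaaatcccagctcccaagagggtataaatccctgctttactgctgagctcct
IL1R2, chr2:101998711-101998960, plus strand: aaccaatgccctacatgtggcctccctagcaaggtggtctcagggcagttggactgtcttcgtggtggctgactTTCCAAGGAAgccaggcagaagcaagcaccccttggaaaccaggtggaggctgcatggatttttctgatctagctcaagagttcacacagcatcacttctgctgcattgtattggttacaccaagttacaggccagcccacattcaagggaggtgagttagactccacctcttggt
IL1RN and IL1R2 each had 1 window with the STAT6-type motif, which 5.38% of all 35116 windows hold. IL1B had TTCNNNGAA, found in 6.57% of all windows, and the first IL1RN window had TGANTCA, also found in 6.57%. Among the 17 windows of members the STAT6-type motif was in 2, TTCNNNGAA in 2 (IL1B and IL1R1), TGANTCA in 3 (both windows of IL1A and 1 of IL1RN) and the NF-kB consensus in 0, against 5.21% of all windows for the last. The windows of IL1A overlap and share a TGANTCA site, which is counted in each of them. A match describes the letters and does not show binding.

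Expression is given as RPKM, a read density corrected for gene length and library depth, so that levels can be compared between genes. A gene was compared between libraries when it reached 1 RPKM in at least 1 of them, and it was counted as higher or lower when log2(RPKM + 0.1) differed by at least 2-fold. That scale understates the change of low genes. Squamous and epithelial markers were high in every library, from 17.4 RPKM for the lowest (DSG3) to 2200 RPKM for the highest (KRT5). Of 8 leukocyte markers only CD68 reached 1 RPKM, their sum lay between 2.64 and 5.98 RPKM, and MS4A1 was listed at 0 in all libraries. Of 6 fibroblast markers only COL1A1 reached 1 RPKM, with sums of 2.29 to 5.39 RPKM, and of 4 endothelial markers only VWF did, at 4.21 RPKM with IL-13 at 24 hr. The control at 2 hr held brain transcripts, with 7 of 8 brain markers at 1 RPKM or more against 1 of 8 in each other library, and their part in the 2 hr values was not tested. Of values above 0, 359 were identical in the controls at 2 and 6 hr, and 0 in any of the 14 remaining pairs, so these controls are not independent of each other.

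The 10 genes covered a wide range of levels. IL18 had the highest mean over the 6 libraries at 57.5 RPKM, followed by IL1B at 27.6, IL1RN at 10.6, IL1A at 4.88 and IL1R2 at 1.76 RPKM. The ranges of these 5 over libraries overlapped between each gene and the next. IL1R1, IL36G and IL36RN had means of 0.899, 0.767 and 0.694 RPKM and also overlapped. IL33 did not exceed 0.116 RPKM, and IL36B was listed at 0 in 5 of 6 libraries and at 0.0404 RPKM in the control at 2 hr. These 2 genes never reached 1 RPKM and were not compared. The other 8 reached 1 RPKM in at least 1 library.

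**Figure D1:**
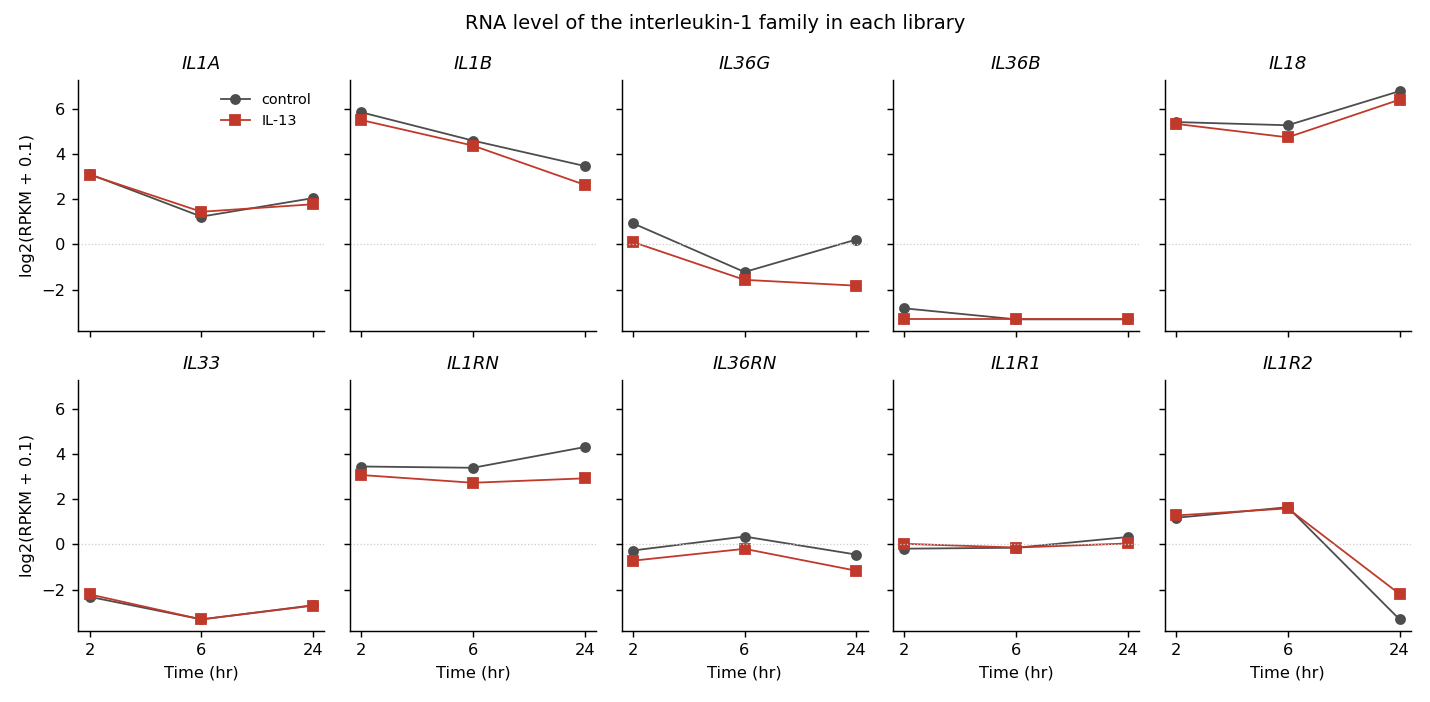
RNA level of each member as log2(RPKM + 0.1) against time in hr, with 1 point for each library (grey circles, control, and red squares, IL-13) and lines joining the libraries of a treatment. IL1B was lower at each later time, IL18 was highest at 24 hr, IL1R2 was near the floor at 24 hr, and IL1RN separated by treatment most at 24 hr, with 19.8 RPKM for the control and 7.52 for IL-13 cells.

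IL1RN and IL36G were the members that differed 2-fold with IL-13. At 24 hr, 2 of 6 members compared were 2-fold lower, IL1RN and IL36G, and 0 were higher, where 1.27% of the 12524 genes compared were lower and 0.886% higher. With a pseudocount of 1 the call of IL36G was lost, which left IL1RN. All 6 had lower values with IL-13 at that time, as did 5683 of all 12524 genes compared. The members' median log2 ratio was -0.61 against 0.02 for all genes. At 6 hr the members' median was -0.38 against 0.00, with 5 of 6 below 0, as were 6153 of 11958 genes. At 2 hr it was -0.21 against 0.00, also with 5 of 6 below 0, as were 5909 of 12005 genes. No member passed the size rule at 2 hr, where 0.658% of all genes were higher and 0.342% lower, or at 6 hr, where 0.753% were higher and 0.318% lower. Squamous markers were lower with IL-13 at 24 hr as well, in 6 of 6 genes, with a summed level of 3695 RPKM in control cells and 2392 in IL-13 cells. Among them KRT5 was at 2200 and 1323 RPKM, KRT14 at 287 and 137, and TP63 at 230.1 and 228. The part of these markers in the members' values was not tested. In bulk RNA, fewer expressing cells and less RNA per cell cannot be told apart.

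IL1RN, the antagonist of IL1R1, was at 10.9 RPKM in control cells and 8.34 in IL-13 cells at 2 hr, at 10.4 and 6.55 at 6 hr, and at 19.8 and 7.52 at 24 hr. The IL-13 library was the lower of the pair at each time, and the 3 IL-13 values (6.55 to 8.34) lay below all 3 control values (10.4 to 19.8). How many of all genes separate by treatment in this way was not counted. The control was 1.30-fold, 1.59-fold and 2.64-fold higher at the 3 times, and the log2 ratios were -0.38, -0.66 and -1.39. In the authors' deposited table its log2 ratio at 24 hr was -1.41 with an adjusted p of 0.000142, the only member's value there below 0.05. In the authors' deposited table its adjusted p was 1 at 2 hr and 0.705 at 6 hr. Each of these p-values compares 1 library with 1 library, and the share of all genes under 0.05 was not counted. Between 6 and 24 hr IL1RN differed by 1.90-fold in control cells and 1.15-fold in IL-13 cells, a difference that was not tested.

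IL36G, an epithelial IL-36 agonist, was at 1.82 RPKM in control cells and 0.978 in IL-13 cells at 2 hr, at 0.328 and 0.237 at 6 hr, and at 1.06 and 0.181 at 24 hr. It was lower with IL-13 in every pair, but the groups overlapped, since the IL-13 library at 2 hr exceeded the control at 6 hr. At 24 hr the control was 5.86-fold higher, with a log2 ratio of -2.05, or -0.80 and so under 2-fold with a pseudocount of 1. The smallest whole-number pair of reads that gives the RPKM ratio at 24 hr within 0.2% is 17 and 3. Multiples of this pair give the same ratio, so the true counts are not known. For counts of 17 and 3 the ratio of IL-13 over control was 0.171. Its exact 95% interval for these counts was 0.0321 to 0.59 (Clopper-Pearson), which covers counting error only. In the authors' deposited table the adjusted p was 0.573.

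IL36RN, the antagonist of the same receptor, had low levels throughout. It was at 0.729 and 0.507 RPKM in control and IL-13 cells at 2 hr, at 1.17 and 0.774 at 6 hr, and at 0.632 and 0.346 at 24 hr. The IL-13 library was again the lower of each pair, with log2 ratios of -0.45, -0.54 and -0.72, all under 2-fold. The control and IL-13 ranges overlapped.

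IL1B, the secreted ligand that is cut to its active form by caspase-1, was at 57.9 RPKM in control cells and 45.6 in IL-13 cells at 2 hr, at 24.2 and 20.7 at 6 hr, and at 11.02 and 6.14 at 24 hr. It was lower with IL-13 in each pair, with log2 ratios of -0.34, -0.22 and -0.83. The spread over time was larger than the difference at any one time, and the groups overlapped. In the authors' deposited table the p-value at 24 hr was 0.00954 and the adjusted p 0.462.

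IL1A, which needs no cleavage to be active, was at 8.57 RPKM in control cells and 8.43 in IL-13 cells at 2 hr, at 2.25 and 2.63 at 6 hr, and at 4.05 and 3.34 at 24 hr. It was lower with IL-13 at 2 and 24 hr and higher at 6 hr, with log2 ratios of -0.02, 0.21 and -0.27. The control and IL-13 ranges overlapped almost completely.

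IL18, another substrate of caspase-1 and the most abundant member, was at 42.8 RPKM in control cells and 40.5 in IL-13 cells at 2 hr, at 38.8 and 26.7 at 6 hr, and at 110.9 and 85.3 at 24 hr. It was lower with IL-13 in each pair by under 2-fold, with log2 ratios of -0.08, -0.54 and -0.38. In the authors' deposited table its p-value at 6 hr was 0.00477 and its adjusted p 0.546.

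The receptors showed no difference past the size rule between treatments where they were compared. Both libraries were under 1 RPKM for IL1R1 at 2 and 6 hr and for IL1R2 at 24 hr, so these pairs were not compared. IL1R1, the signalling receptor, was at 0.778 and 0.919 RPKM in control and IL-13 cells at 2 hr, at 0.804 and 0.809 at 6 hr, and at 1.16 and 0.930 at 24 hr. Its highest value was 1.49-fold its lowest, the narrowest range of the members detected in all libraries. IL1R2, the decoy, was at 2.17 and 2.34 RPKM at 2 hr and at 3.04 and 2.93 at 6 hr, and was listed at 0 in the control and at 0.118 with IL-13 at 24 hr. The 24 hr libraries lay apart from the other 4, and the treatments overlapped.

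**Figure D2:**
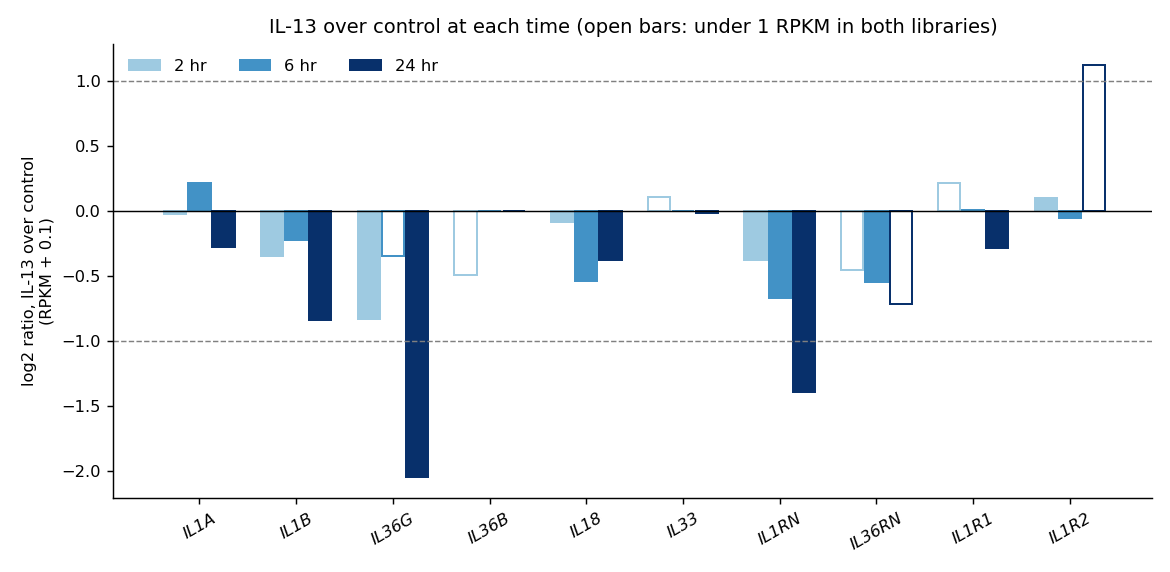
IL-13 against control as a log2 ratio of RPKM + 0.1 (y axis) for each member at 2, 6 and 24 hr, with 1 bar for each pair of libraries, dashed lines at 2-fold, and open bars where neither library reached 1 RPKM. IL1RN (-1.39) and IL36G (-2.05) at 24 hr are the filled bars past the line, and the open IL1R2 bar at 24 hr stands for 0 and 0.118 RPKM.

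A limma model of log2(RPKM + 0.1) on time and treatment tested whether a difference was common to the 3 times, in 11953 genes of which 5 were members. No member had an adjusted p under 0.05, and 0% of all genes tested did (0 of 11953, with 2025 at an unadjusted p under 0.05). Of the 5 members 3 had an unadjusted p under 0.05, against 16.9% of all genes. IL1RN had -0.81 ± 0.21 (SE) on the log2 scale, lower at 3 of 3 times, with an adjusted p of 0.221. IL1B had -0.47 ± 0.14 (SE) with an adjusted p of 0.241, and IL18 -0.33 ± 0.10 (SE) with an adjusted p of 0.249, each lower at 3 of 3 times. IL1A had -0.03 ± 0.11 (SE) and IL1R2 0.39 ± 0.26 (SE), with adjusted p-values of 0.916 and 0.498. Without the 24 hr pair the log2 change was -0.52 for IL1RN, -0.28 for IL1B, 0.10 for IL1A and 0.03 for IL1R2. The IL1R2 value thus rests on the 24 hr pair, at 0 and 0.118 RPKM, and was 0.06 with a pseudocount of 1. The spread behind these values is that between times, 2 of which have controls that share values.

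Antagonist and ligand can be set against each other within a library. The RPKM of IL1RN over that of IL1B was 0.188 in the control and 0.183 with IL-13 at 2 hr, 0.432 and 0.316 at 6 hr, and 1.80 and 1.23 at 24 hr. The ratio was lower with IL-13 at each time, by little at 2 hr. It was above 1 only in the 24 hr libraries, with either treatment. IL1B over IL1A was 6.76 and 5.42 at 2 hr, 10.7 and 7.89 at 6 hr, and 2.72 and 1.84 at 24 hr, again lower with IL-13 in each pair.

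**Figure D3:**
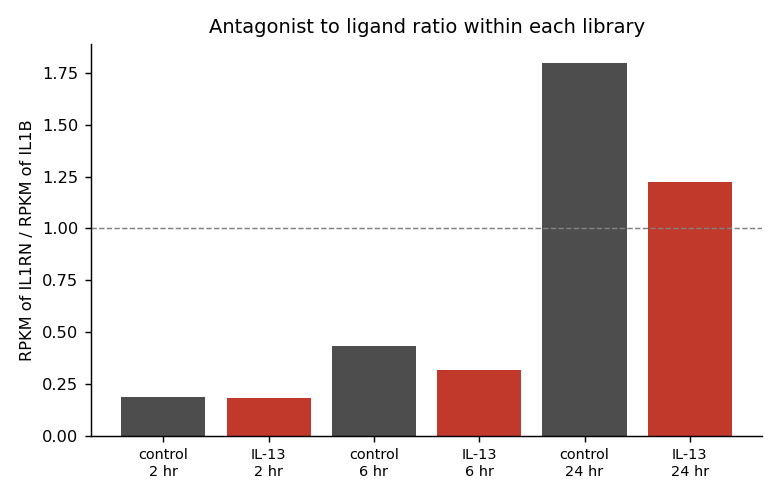
Bars show the RPKM of IL1RN divided by the RPKM of IL1B in each of the 6 RNA libraries (grey, control, and red, IL-13), with a dashed line where the antagonist equals the ligand. The ratio was 0.188 and 0.183 at 2 hr and 1.80 and 1.23 at 24 hr.

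Times were also compared within a treatment. From 2 to 6 hr without IL-13, IL1A, IL1B and IL36G were lower by 3.81-fold, 2.40-fold and 5.54-fold, which made 3 of 7 members compared lower and 0 higher, where 2.36% of all genes were lower and 0.2% higher. The IL-13 libraries, which share no library with the controls, had IL1A at 8.43 and 2.63 RPKM, IL1B at 45.6 and 20.7, and IL36G at 0.978 and 0.237 at the same times. These 3 ligands were lower at 6 hr with either treatment.

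From 6 to 24 hr without IL-13, 2 of 8 members were higher (IL18 by 2.86-fold and IL36G by 3.24-fold) and 2 lower (IL1B by 2.19-fold and IL1R2), where 16.2% of all genes were higher and 6.09% lower. So many genes differed between these times that the members' counts say little about them as a group. With a pseudocount of 1 the log2 ratio of IL36G was 0.63, and 1 member was higher. With IL-13, 1 of 5 was higher (IL18 by 3.19-fold) and 2 lower (IL1B by 3.38-fold and IL1R2 by 24.7-fold), where 14.9% of genes were higher and 5.01% lower. IL1R2 was at 3.04 RPKM in the control at 6 hr and listed at 0 at 24 hr. IL1RL1, the IL-33 receptor ST2 of the same cluster, was at 1.94 and 2.35 RPKM at 2 hr, at 0.899 and 1.71 at 6 hr, and listed at 0 in both libraries at 24 hr. IL18R1, an IL-18 receptor chain beside it, was at 0.713 to 0.958 RPKM at 2 and 6 hr and at 0.293 and 0.466 at 24 hr. It stayed under 1 RPKM and so was not compared. IL1R1, which lies between IL1R2 and IL1RL1, did not share the lower values at 24 hr and had its highest value then. IL1RL2, another gene of the cluster, did not exceed 0.0375 RPKM, and IL18RAP was listed at 0 in all libraries. The tables name the 24 hr libraries in another form than the earlier ones, with a passage number, and whether they came from the same culture is not given in the sources used here.

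IL18 had its pattern in common with other genes. Over the 6 libraries and 8934 other genes with a mean of at least 5 RPKM, PERP, CDK18, WBP2, RAB15 and KIAA0182 were nearest to it after each gene was centred on its own mean. Their root mean square differences were 0.10, 0.11, 0.13, 0.13 and 0.13 on the log2(RPKM + 0.1) scale. PERP, a desmosome-associated membrane protein, was at 109 and 102 RPKM at 2 hr, 100.5 and 78.5 at 6 hr, and 262 and 207 at 24 hr. This is a description of 6 libraries, with the 24 hr libraries highest in each of these genes.

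The rest of the pathway was taken by role. Of the 10 other ligands, receptors and binding proteins, 4 were compared at 2 and 6 hr and 3 at 24 hr, and 0 passed the size rule. At most 0.886% of all genes were higher and 1.27% lower at any of these times, so 0 of so few says little. The nearest to it was IL1RL1 at 6 hr, at 0.899 and 1.71 RPKM in control and IL-13 cells. IL36A, IL37 and IL18RAP were listed at 0 in all libraries. IL1RAP, the accessory protein of the signalling receptors, was at 10.4 and 9.08 RPKM at 2 hr, 9.17 and 9.54 at 6 hr, and 6.00 and 5.98 at 24 hr. SIGIRR, an inhibitory member of the receptor family, was at 3.63 and 3.87 RPKM at 2 hr, 2.13 and 2.15 at 6 hr, and 12.4 and 13.5 at 24 hr. Treatments differed little in both genes, and the 24 hr libraries lay apart from the earlier ones. For IL1RAP the 2 and 6 hr values overlapped.

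Genes of cytokine processing and inflammasomes had 0 of 8, 0 of 7 and 0 of 9 members past the size rule at the 3 times, with medians of 0.00, -0.01 and -0.07. Among all genes compared, 0.658%, 0.753% and 0.886% were higher at these times and 0.342%, 0.318% and 1.27% lower. With shares this small, a count of 0 says little about a list of this size. CAPN1 and CAPN2, calpains that can cut interleukin-1 alpha, were the most abundant, at 147 to 203 and 82.4 to 203 RPKM. Receptor signalling genes had 0 of 13, 0 of 12 and 0 of 13, against the same shares of all genes, with medians of 0.01, 0.01 and -0.05. IRAK1 lay at 92.1 to 147 RPKM and MYD88 at 18.3 to 27.4 RPKM.

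Known targets of interleukin-1 signalling had 0 of 16 past the size rule at 2 hr, where 0.658% of all genes were higher and 0.342% lower. At 6 hr 1 of 12 was higher, the chemokine CXCL2 at 0.885 and 2.15 RPKM, and 1 lower, the iron-binding protein LCN2 at 4.53 and 1.95, where 0.753% of all genes were higher and 0.318% lower. At 24 hr 0 of 14 targets were higher and 3 lower, with a median of -0.30, where 0.886% of all genes were higher and 1.27% lower. These were PTGS2, which makes prostaglandins, at 17.5 and 8.62 RPKM, the cytokine IL11 at 2.48 and 1.02, and the calcium-binding protein S100A8 at 2.26 and 0.818. From 2 to 6 hr without IL-13, 9 of 16 targets were lower and 1 higher, where 2.36% of all genes were lower and 0.2% higher, and of the lower ones IL11 was at 22.2 and 2.77 RPKM and PTGS2 at 17.6 and 2.61. By the limma test 0 of 13 targets had an adjusted p under 0.05, and 5 had an unadjusted p under 0.05, against 0 and 16.9% of all 11953 genes.

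**Figure D4:**
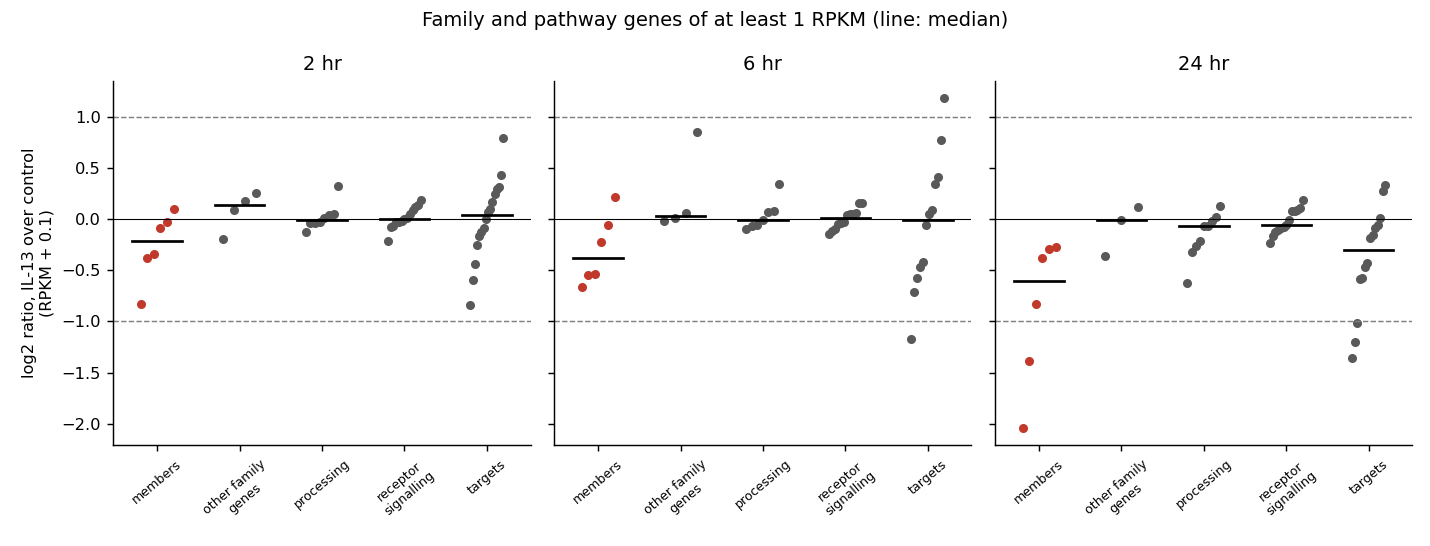
Each point is a log2 ratio of RPKM + 0.1, IL-13 against control, of a gene of at least 1 RPKM, at 2, 6 and 24 hr, for the members (red) and 4 pathway lists (grey), with horizontal lines at the medians and dashed lines at 2-fold. The members' medians were -0.21, -0.38 and -0.61, and those of receptor signalling genes 0.01, 0.01 and -0.05.

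Histone marks at the members' starts were taken from the authors' deposited tables, which give M, the log2 ratio of library 1 over library 2 of a mark, and A, the mean log2 level. Neither headers nor labels state which library was treated, so no direction of treatment is given. Calls needed M of 1 or more in either direction and, in the higher library, a level of 30 or more as derived from M and A. H3K27Ac peaks were listed for 8 of 10 members and reached that level for 5 of them, IL18, IL1B, IL1R2, IL36RN and IL1RN. No H3K27Ac peak was listed at the start of IL1A, whose RNA was at 2.25 and 2.63 RPKM at 6 hr, or of IL36B.

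IL1R2 carried the only called peak among members. At the start at 102615423 on chromosome 2 (hg19), its H3K27Ac level was 98.4 in library 1 and 39.4 in library 2, with M of 1.32 and a −log10 p of 5.16 in the authors' deposited table. Of 7 member peaks at the minimum level 1 was thus higher in library 1 and 0 in library 2, where 5.04% of 12440 peaks were higher in library 1 and 3.71% in library 2. IL1R2 RNA was at 3.04 and 2.93 RPKM in the matched control and IL-13 libraries at 6 hr. The mark at this start differed by more than 2-fold between its libraries, and the RNA values of the gene lay close together. This peak was listed for the noncoding transcript of IL1R2 alone, whereas RPKM is given per gene.

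The remaining member peaks at the minimum level had H3K27Ac values within 2-fold. IL18 at 112034840 had levels of 176 and 115, with M of 0.62 and a −log10 p of 3.20 in the authors' deposited table. Another peak at this start had levels of 43.4 and 47.2 with M of -0.12, the opposite sign, in the authors' deposited table. IL1B at 113594356 had levels of 107 and 76.6 (M of 0.48), and IL36RN at 113816684 had 58.5 and 50.9 (M of 0.20), in the authors' deposited table. IL1RN has more than 1 start. At 113875469, the upstream start, one peak had levels of 33.1 and 38.0 with M of -0.20 and another 27 and 36.9 with M of -0.45, and at 113885137 the levels were 12.0 and 9.99, under the minimum, with M of 0.26, in the authors' deposited table. Among the 3 members above 5 RPKM at 6 hr, IL18 had the highest level of the mark and IL1RN the lowest, whereas IL36RN, near 1 RPKM, exceeded IL1RN.

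Peaks under the minimum level had large M in several cases. IL1R1 at 102770401 had M of 3.45 for H3K27Ac and -3.86 for H3K9Ac in the authors' deposited table, where the higher library had levels of 10.97 and 13. IL36G at 113735605 had levels of 24.1 and 12.0 with M of 1.00, and IL33 at 6215785 had 3.94 and 11 with M of -1.48, all H3K27Ac values from the authors' deposited table. The 2 marks thus had opposite signs at IL1R1, both below the level at which peaks were called.

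**Figure D5:**
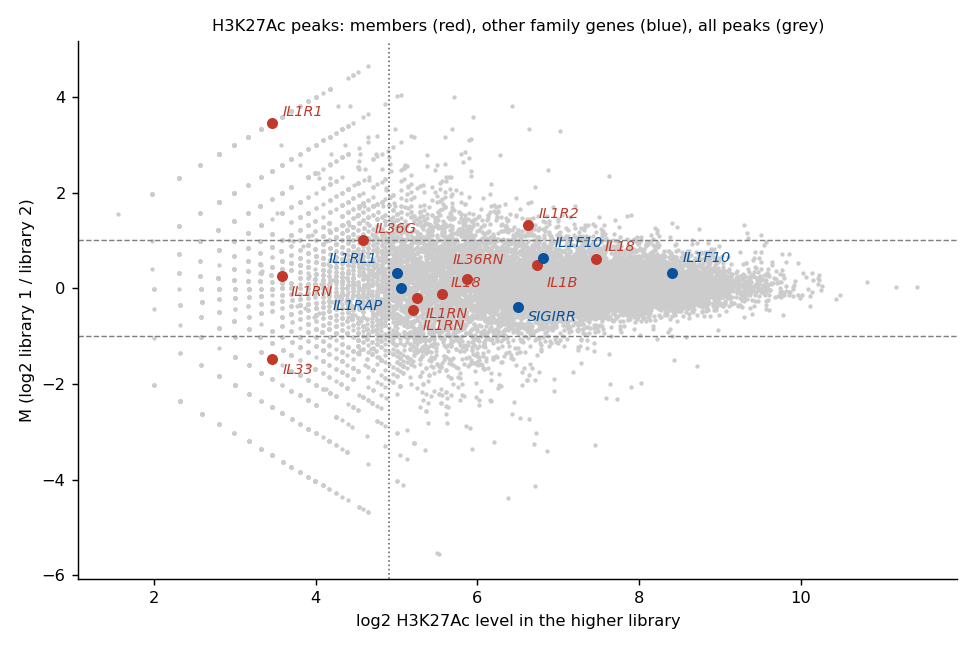
Each point is an H3K27Ac peak, with log2 of its level in the higher library on the x axis and M, the log2 ratio of library 1 over library 2, on the y axis (members in red, other family genes in blue, all peaks in grey). Dashed lines mark 2-fold and the dotted line the minimum level of 30, past which IL1R2 (M of 1.32) is the only member outside the dashed lines.

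The 2 other marks were sparse at these genes. H3K9Ac peaks reached the minimum level at IL18, with levels of 68.6 and 63.1, and at IL1B, with 42.2 and 45.9. In the authors' deposited table their M was 0.12 and -0.12. Of these 2 peaks 0 were called, where 3.79% of 11968 peaks were higher in library 1 and 3.59% were lower. IL18 was the only member with a listed H3K4me3 peak, at a level of 20.7 in the higher library and so under the minimum. Among all 9906 H3K4me3 peaks compared, 6.02% were at least 2-fold higher in library 1 and 4.82% in library 2. Among the other receptors and ligands, IL1RAP had H3K4me3 levels of 41.8 and 31.0 and an H3K9Ac peak of 89.0 and 80.2. Another H3K9Ac peak at the same start, of 54 and 24 with M of 1.17 in the authors' deposited table, was called higher in library 1.

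The strongest H3K27Ac of the whole family lay at a gene with hardly any RNA. IL1F10, which encodes interleukin-38 and sits between IL36RN and IL1RN, had a peak of 338 and 271 in libraries 1 and 2, above 89.3% of all peaks at the minimum level. This peak was listed at both IL1F10 starts, 113825546 and 113829894, with M of 0.32 in the authors' deposited table. H3K9Ac there was 44.5 in library 1 and 11.04 in library 2, with M of 2.01 and a −log10 p of 5.32 in the authors' deposited table. IL1F10 RNA did not exceed 0.0797 RPKM in any library. The nearest IL36RN start was 8.86 kb from an IL1F10 start and the nearest IL1RN start 45.6 kb, and which gene, if any, the peak acts on was not tested.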

How the data were processed

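The RNA tables give RPKM per gene symbol, as deposited and named in the file headers. Beside it stand the authors' own log2 ratios and p-values, plain and adjusted, per the file headers. The ChIP tables, with column names of the MAnorm method, hold M, a log2 ratio, A, a mean log2 level, and a −log10 p for every peak, per the file headers. Tools in the submitters' processing notes are TopHat2 2.0.9, Bowtie 1.0.0, MACS2 2.0.10.20130712 and DESeq, and the build is hg19 (GRCh37). How reads were counted is not given in the sources used here. No source ties the 6 columns of raw reads per ChIP library to a treatment, and they were not used. The input library was not analysed here.

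Ratios were taken on log2(RPKM + 0.1), with 1 RPKM required in the higher library and a 2-fold limit. Folds are RPKM divided by RPKM. A difference common to the times was tested in limma 3.58.1 (R 4.3.3) in genes of at least 1 RPKM in at least 3 libraries. Benjamini-Hochberg adjustment and a threshold of 0.05 were used. The model was first run on simulated data with independent noise of a single size and the same change at each time. Those settings differ from these libraries, so that run is no check of the results here. No label says that libraries came from separate cultures. Identical peak values at starts less than 20 kb apart counted as 1 peak. Depth was read from steps of RPKM times length in short microRNA and small nucleolar RNA genes. At 24 hr 93.0% of 128 control values and 92.5% of 147 IL-13 values lay within 0.5% of a single step, equal to 13.6 and 14.0 M reads (megareads). At 2 and 6 hr at most 45.3% did, and no depth is given. The members and pathway lists were chosen with earlier results of these data known. Named genes are the 10 members and those list genes that passed the size rule with IL-13 or, in lists with none, were most abundant. IL1RL1 passed it only between times, and other list genes that did so are not all named. IL1F10, IL18R1, IL1RL2, IL36A, IL37 and IL18RAP were added after their values were seen. Other software was Python 3.11.15 with pandas 2.3.3, NumPy 2.4.6, SciPy 1.17.1 and matplotlib 3.10.9.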

Additional observations from a re-analysis of the deposited data

Results flagged for a closer look

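The log2 ratio of IL1A was -0.02 at 2 hr, 0.21 at 6 hr and -0.27 at 24 hr, and that of IL1R2 was 0.10 at 2 hr and -0.05 at 6 hr. Both have opposite signs at different times, each from 1 pair of libraries and all under 2-fold, and the difference between times was not tested.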

How the results depend on the processing

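Every value at a single time rests on 1 library a group, and the p-values of limma measure only the spread between 3 times. No paired analysis was possible because no replicate numbers are shared by the groups in the labels, beyond the limma model, which sets IL-13 against control within each time. Member log2 ratios were recomputed with a pseudocount of 1, a minimum of 0.5 RPKM, no minimum, or centring on the median of all genes. Of 152 such ratios 149 kept their call, and 0 of those called 2-fold changed sign. The uncalled ratio of IL1RN from 6 to 24 hr in IL-13 cells was 0.20, and -0.02 after centring. With a pseudocount of 1, IL36G had -0.80 at 24 hr and 0.63 from 6 to 24 hr in control cells, which left 1 member lower in the first comparison and 1 higher in the second. Centring took IL36RN to -1.02 from 6 to 24 hr in control cells. With no minimum RPKM 1 member (IL1R2) was higher at 24 hr. The genes changed 2-fold among all genes at 2, 6 and 24 hr numbered 120, 128 and 270, against 60, 64 and 155 with a pseudocount of 1, 201, 201 and 414 with a minimum of 0.5 RPKM, and 524, 444 and 839 with no minimum. From 2 to 6 hr in control cells they numbered 307, against 201 with a pseudocount of 1 and 660 with no minimum.

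By limma 0 members were called under each of the 7 alternatives, and adjusted p-values ranged from 0.101 to 0.625 for IL1RN, 0.107 to 0.625 for IL1B and 0.185 to 0.66 for IL18. Over all genes 7 were called with a pseudocount of 1, 6 with limma-trend and 0 to 3 when a time was left out, with 3 without the 2 hr pair. The log2 change of IL1A was 0.10 without the 24 hr pair and -0.15 without the 6 hr pair. With no minimum level, 3 H3K27Ac peaks of members were higher in library 1 and 1 in library 2. The same setting gave 1 H3K4me3 peak higher in library 1 and 1 H3K9Ac peak higher in library 2. With a 1.5-fold limit 2 H3K27Ac peaks were higher in library 1. The share of all peaks called under these settings was not counted, so these counts have no background. The causes were not tested.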
